A study of Mus musculus with 4 samples.

Results

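The TNF ligand and receptor superfamily was followed through 4 stages of osteoclast formation in mouse marrow cultures. Its members were taken by symbol: Tnf, every gene named Tnfsf or Tnfrsf with a number except Tnfrsf11a, which was left out, and Lta, Ltb, Ltbr, Cd40, Cd40lg, Fas, Fasl, Cd27 and Cd70. This gave 36 of the 18193 genes that had a probe set annotated to exactly 1 symbol. They comprised 13 ligands, 22 receptors and the non-coding transcript Tnfsf13os, which is named for its position opposite Tnfsf13. The 36 genes were covered by 57 probe sets, with 21 genes on a single one, and a gene with several was read from the brightest of them by mean log2.

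Each stage was measured on 1 single-channel expression array, so no stage had a replicate. All cells came from the long bone marrow of C57BL/6 mice aged 8 to 10 weeks and had M-CSF at 100 ng/ml, without any genetic change given in the labels. Bone marrow macrophages (BMM) had 3 days of M-CSF. Pre-osteoclasts (pOC) were BMM given RANKL at 100 ng/ml with M-CSF for 2 days, which yielded mononuclear cells positive for the osteoclast enzyme TRAP. Mature multinucleated osteoclasts had both cytokines for 2 days more, on a plastic plate (mOCp) or on dentin slices that they resorb (mOCd). RANKL and time in culture therefore cannot be told apart, nor can dentin from either where mOCd is set against pOC or BMM, and the sources used here do not say how many mice supplied each RNA.

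Ligands of this superfamily are trimeric proteins that act at the cell surface or after shedding, and their receptors signal as clusters. Death domain receptors can recruit caspases, TRAF-binding receptors activate NF-kB and MAP kinases through TRAF adaptors, and decoy receptors bind ligand without signalling. Macrophages both make and sense these ligands, and 1 of them, RANKL (encoded by Tnfsf11), drives osteoclast formation, while TNF is known to enhance it.

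The stage labels were checked against markers. The summed intensity of 8 osteoclast markers was 93.7 in BMM, 25769.3 in pOC, 43009.7 on plastic and 43253.1 on dentin, and all 8 lay above the floor in the last 3. Of 8 macrophage markers, 7 or 8 were above the floor on each array. Intensities at or under the 50th percentile of an array, 12.7 in BMM, 14.5 in pOC, 14.8 on plastic and 15.8 on dentin, are too dim to be ordered and were set to that floor. In a comparison of arrays a gene was eligible when its brighter value reached the 75th percentile of its array, between 77.8 and 87.0, and it was called, in either direction, at a ratio of 2-fold or more. A ratio with 1 value at the floor is a lower bound, written as at least N-fold. The only guide to error was an SD between probe sets of the same gene. It is the SD of the difference between the log2 ratios of the 2 brightest, divided by the square root of 2. It was taken over genes with at least 2 probe sets above the floor on both arrays, 4663 genes for pOC against BMM. On the log2 scale it was 0.39 for pOC against BMM, 0.40 for mOCp against pOC, 0.50 for mOCd against pOC and 0.42 for mOCd against mOCp. It leaves out the spread between cultures and does not cover values at the floor.

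The bright members were mostly receptors. Of the 22 receptors, 10 reached the 75th percentile on at least 1 array, against 2 of the 13 ligands, Tnf and Tnfsf9. Outside these counts were 2 probe sets annotated to several symbols, the ligand gene Tnfsf12 among them. They read 187.4 and 173.6 in BMM, above its 75th percentile of 87.0. In all, 12 of 36 members (33.3%) reached it, compared with 42.8% of all 18193 genes, and 26 of 36 (72.2%) exceeded the floor on at least 1 array, compared with 71.9% of all genes. On all 4 arrays, 30.6% of members were above it, compared with 49.7% of all genes. Members above the floor numbered 16 in BMM, 17 in pOC, 20 on plastic and 14 on dentin, where all genes above it numbered 10676, 10964, 11158 and 10715.

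**Figure D1:**
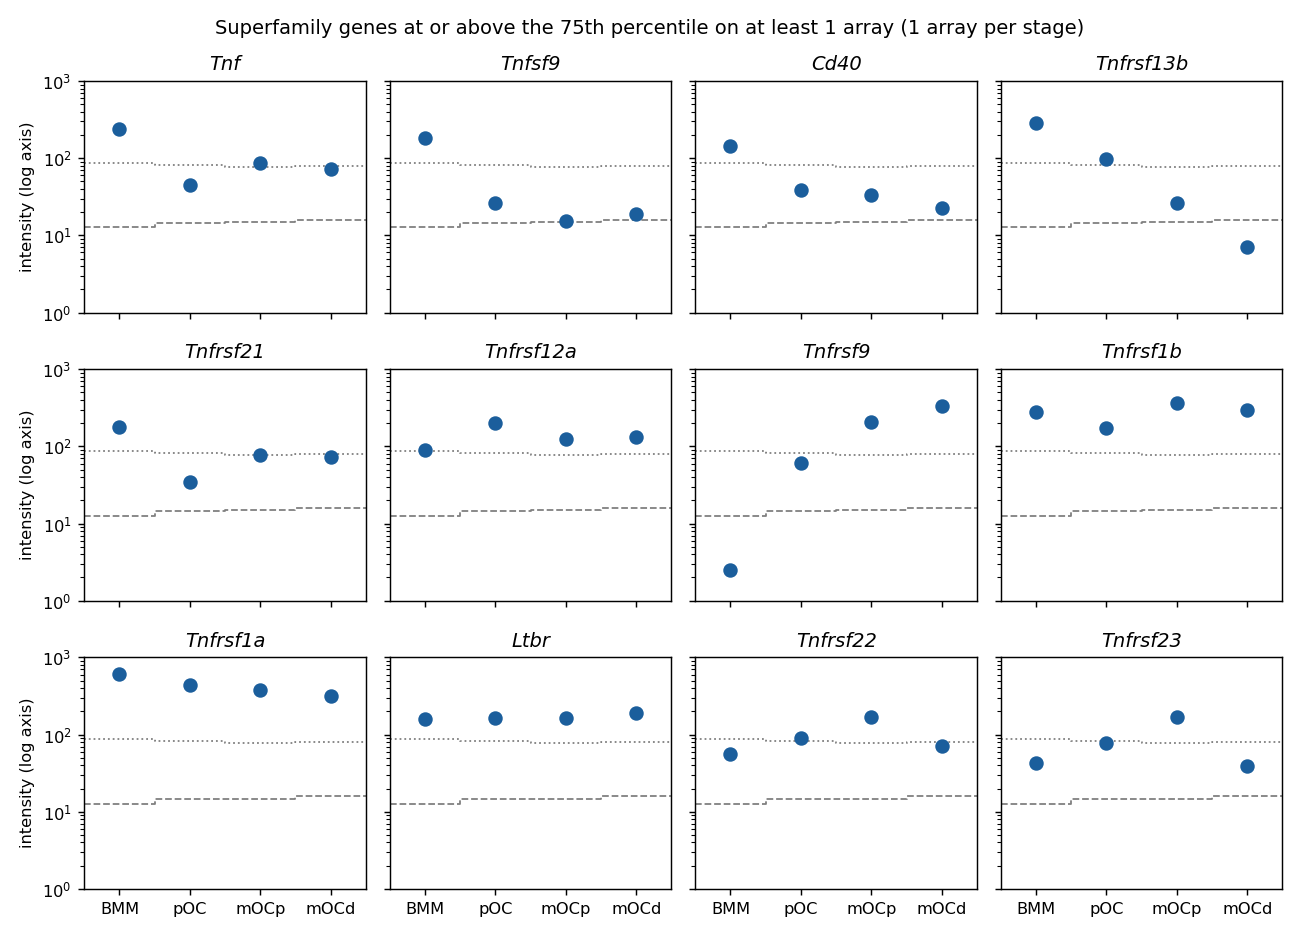
Intensity (log axis) of the 12 superfamily genes that reached the 75th percentile of an array, by stage, with 1 point per array; the dashed step is the floor and the dotted step the 75th percentile of each array. Tnf, Tnfsf9, Cd40, Tnfrsf13b and Tnfrsf21 were brightest in BMM, Tnfrsf9 was brightest in mOCd, and Tnfrsf22 and Tnfrsf23 were brightest in mOCp.

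Among the ligands, Tnf and Tnfsf9 were both brightest in macrophages. Tnf, the inflammatory cytokine of the family, read 241.6 in BMM, 44.5 in pOC, 86.3 on plastic and 72.3 on dentin. It was 5.43-fold lower in pOC than in BMM (log2 ratio −2.44), and the mature cultures lay between these levels, 1.94-fold above pOC on plastic and 1.62-fold on dentin, neither past 2-fold. The mOCp and mOCd values differed by 0.26 on the log2 scale, which is less than the probe-set SD of 0.42.

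Tnfsf9 encodes the ligand of the co-stimulatory receptor Tnfrsf9. Its intensity was 183.5 in BMM, 26.2 in pOC, 15.3 on plastic and 19.1 on dentin. It was 7.0-fold lower in pOC than in BMM (log2 ratio −2.81), and both mature values stood just above the floor, so their order carries little information. On the chromosome, Tnfsf9 lies next to Cd70, which never exceeded the floor.

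The remaining ligands with a probe set of their own were dim. Tnfsf10, which encodes the death ligand TRAIL, read 40.3 in BMM and then 3.9, 7.1 and 7.0, all under the floor, so that pOC was at least 2.78-fold lower without the gene reaching the 75th percentile anywhere. Its further 2 probe sets were also above the floor in BMM, at 31.7 and 23.1, and under it on the other arrays. Only BMM showed a level of this transcript above the floor on any probe set.

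Tnfsf11, the gene for RANKL itself, was under the floor in BMM (1.9), pOC (2.6) and mOCd (7.4) and read 28.0 in mOCp. Its other probe set gave 24.9 in mOCp and at most 0.5 elsewhere. The RANKL protein in the medium is not seen by an array, and of 6 measured markers of stromal cells and osteoblasts, which are known to make RANKL, 3 were above the floor in mOCp. These were Dcn at 55.0, against 196.1 in pOC and 127.3 in mOCd, Alpl at 24.3 and Sp7 at 17.4, while Col1a1 and Cxcl12 were under the floor on all 4 arrays. The summed intensity of the list was 68.9, 287.4, 103.9 and 207.9 from BMM to mOCd, and the part of such cells in the Tnfsf11 value was not tested. Tnfrsf11b, which encodes osteoprotegerin, the soluble decoy that binds RANKL, never exceeded the floor, with 6.8 as its highest value.

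Other ligands exceeded the floor without reaching the 75th percentile: Fasl, Ltb, Tnfsf4, Tnfsf8, Tnfsf13b and Tnfsf14. With Tnfsf10, Tnfsf11, Tnfsf13os and the receptors Fas, Tnfrsf4, Tnfrsf10b, Tnfrsf13c and Tnfrsf18, they form a set of 14 dim members whose highest intensity was 53.5 (Tnfrsf4 in mOCd). Tnfrsf4, the OX40 receptor, was the only 1 of these 14 above the floor on all 4 arrays, at 25.3 in BMM, 42.5 in pOC, 28.6 on plastic and 53.5 on dentin. Fas, the prototype death receptor, read 22.8 in BMM and 31.2 in mOCp and was under the floor in pOC and mOCd. Never above the floor were Lta, Cd40lg, Cd70, Cd27, Tnfrsf8, Tnfrsf11b, Tnfrsf14, Tnfrsf17, Tnfrsf19 and Tnfrsf25, 10 genes with no intensity over 12.4. Several of these, such as Cd27, Cd40lg and Tnfrsf17, are known from lymphocytes.

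The comparison of pOC with BMM asks what 2 days of RANKL, together with 2 days of culture, did to the family. Tnf, Tnfsf9, Cd40, Tnfrsf13b and Tnfrsf21 were lower in pOC and Tnfrsf12a was higher. Of 36 members 10 were eligible, and 5 were lower (50% of the eligible) beside 13.2% of the 7256 eligible genes, while 1 was higher (10%) beside 11.1%. The median log2 ratio of the 10 was −1.12, against 0.05 for all eligible genes. Over the 21 members above the floor on either array it was −0.17, against 0.09 for all such genes. With no replicates this is a description of these arrays.

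Macrophage markers were also lower in pOC, where the summed intensity of the 8 was 10712.1, against 18219.5 in BMM. Between BMM and pOC, C1qa went from 3372.4 to 41.9, Fcgr1 from 1967.2 to 57.0, Cx3cr1 from 700.4 to 28.6, Mertk from 164.1 to 18.8 and Adgre1 from 1581.9 to 319.6, while Csf1r and Cd68 read 4898.6 and 5096.2 in pOC after 5815.9 and 4155.4. The part of macrophage number or state in the 5 lower members was not tested. In RNA from a whole culture, fewer cells of a type cannot be told apart from less RNA per cell.

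Cd40, a co-stimulatory receptor of antigen-presenting cells, had intensities of 145.7 in BMM, 38.3 in pOC, 33.2 on plastic and 22.7 on dentin. The level in pOC was 3.8-fold lower than in BMM (log2 ratio −1.93). Its further probe sets gave log2 ratios of −2.36 and, as a bound, −2.56. All 3 carry a suffix for shared sequence, so Cd40 has no value without suffixed probe sets. Of 4 dendritic cell markers, Flt3 was under the floor on every array, Ccr7 was above it in mOCp alone, Zbtb46 read 19.6 in BMM and 8.2 in pOC, and Itgax read 27.3 and 34.3. Their summed intensity was 58.9 in BMM and 52.7 in pOC, and their part in the Cd40 values was not tested.

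Tnfrsf21, also known as death receptor 6, read 176.1 in BMM, 34.7 in pOC, 77.8 on plastic and 72.3 on dentin. It was 5.07-fold lower in pOC than in BMM (log2 ratio −2.34), with −1.55 on its other probe set. Both probe sets thus placed BMM highest and pOC lowest.

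Tnfrsf13b encodes TACI, a receptor for the ligands BAFF and APRIL that is best known from B cells. Its intensity was 288.9 in BMM, 97.1 in pOC, 25.9 on plastic and 7.0 on dentin, where it was under the floor. It was 2.98-fold lower in pOC than in BMM, 3.75-fold lower in mOCp than in pOC and at least 6.15-fold lower in mOCd than in pOC. pOC thus stood below BMM and both mature cultures below pOC, and mOCd was at least 18.3-fold lower than BMM. The bound against pOC moved with the floor, from a log2 ratio of −3.21 with a lower floor to −1.90 with a higher one.

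Markers of B cells, in which this receptor is best known, were mostly near the floor. Of 6 measured B and plasma cell markers, 3 were above it in BMM, 2 in pOC, 2 on plastic and 1 on dentin, and Cd79a, Ms4a1 and Jchain were so on no array. Cd79b read 16.5, 12.2, 11.6 and 5.8, above the floor in BMM alone, and Pax5 read 15.1, 17.4, 22.5 and 10.1. Of the 6 only 1 ever reached the 75th percentile, Sdc1, at 45.2 in BMM and 2484.5 in mOCd, and the summed intensity of the list was between 89.1 in BMM and 2515.6 in mOCd. The part of B cells in the Tnfrsf13b values was not tested. Tnfrsf13c and Tnfrsf17, the other receptors of these ligands, had highest values of 17.2 and 11.5, both in pOC.

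Tnfrsf12a, the receptor of the ligand TWEAK (encoded by Tnfsf12), was the 1 eligible member higher in pOC. It read 90.6 in BMM, 203.4 in pOC, 125.1 on plastic and 131.2 on dentin, 2.25-fold higher in pOC than in BMM. The other probe set gave 76.3, 151.7, 96.4 and 133.3, a log2 ratio of 0.99 against 1.17, which is just short of 2-fold. Both probe sets had their highest value in pOC. Tnfrsf9 had a larger ratio, at least 4.8-fold, but its 60.9 in pOC was under the 75th percentile of 81.5, so it was not called.

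**Figure D2:**
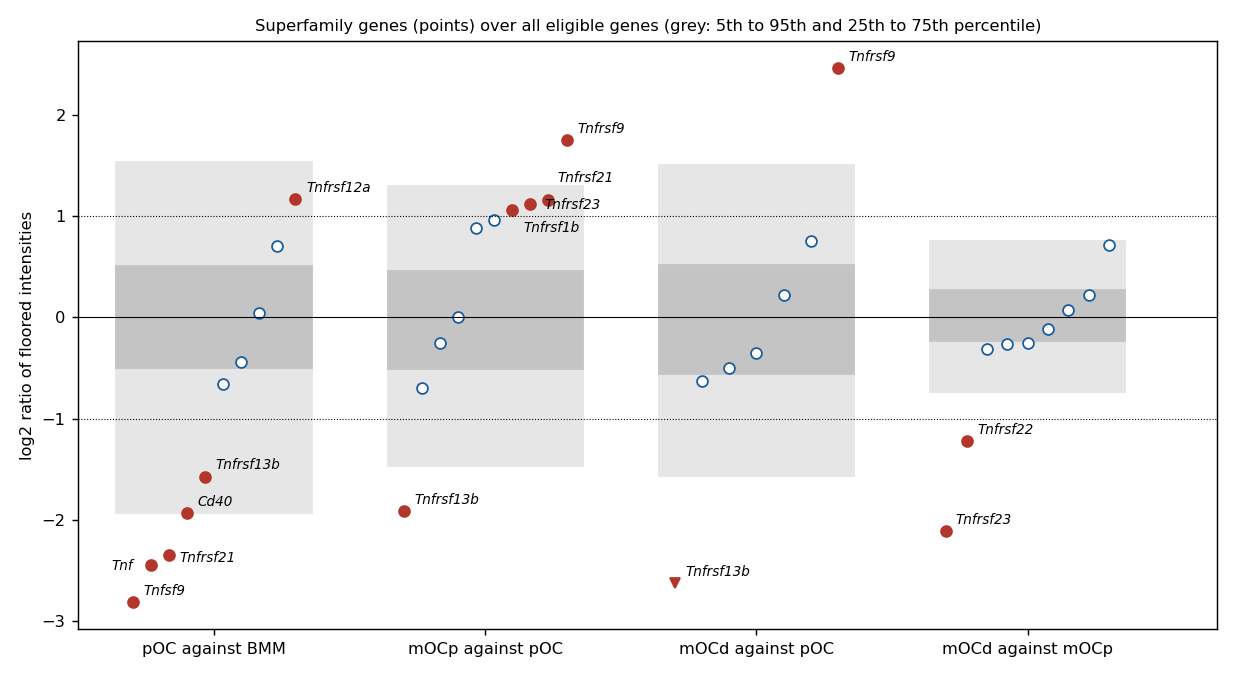
Log2 ratio of floored intensities for eligible superfamily genes in each of the 4 comparisons. Filled red points are past 2-fold (dotted lines) and open blue points are not, the triangle is a bound, and grey boxes span the 5th to 95th and the 25th to 75th percentile of all eligible genes; the 5 lower genes of the first comparison and the receptors Tnfrsf9 and Tnfrsf13b lie away from 0.

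The mature cultures were set against pOC to see what 2 further days on either surface changed. On plastic, 4 of 10 eligible members were higher than in pOC (40%), beside 8.8% of 7192 eligible genes, namely Tnfrsf9, Tnfrsf21, Tnfrsf23 and Tnfrsf1b. With spike-in scaling Tnfrsf9 alone of these was called, and the log2 ratios of Tnfrsf21, Tnfrsf23 and Tnfrsf1b were 0.71, 0.67 and 0.61. With probe sets averaged, 2 members were higher, Tnfrsf9 and Tnfrsf23. Tnfrsf13b alone was lower (10%, beside 11.4% of eligible genes). On dentin, 7 members were eligible, of which Tnfrsf9 was higher and Tnfrsf13b lower (14.3% each, beside 10.8% and 12.3% of 7230 eligible genes), shares near the background. Both comparisons use the same pOC array. Medians of the eligible members were 0.92 on plastic and −0.35 on dentin, and those of all eligible genes −0.03 and −0.01.

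Tnfrsf9, the co-stimulatory receptor CD137, was the member with the largest ratio upward. Its intensity was 2.5 in BMM, 60.9 in pOC, 205.0 on plastic and 334.9 on dentin. In the mature cultures it was 3.37-fold higher on plastic and 5.5-fold higher on dentin than in pOC, and against BMM, where it was under the floor, at least 16.1-fold and at least 26.4-fold higher. Between mOCd and mOCp the ratio was 1.63-fold, short of 2-fold.

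The probe sets of Tnfrsf9 did not all show this course. The second read 6.7, 39.2, 218.2 and 228.1 from BMM to mOCd, with log2 ratios to pOC of 2.48 on plastic and 2.54 on dentin, against 1.75 and 2.46 on the one used. The third read 6.7, 17.8, 15.5 and 2.6 and thus stayed near the floor. Averaging all 3 gave log2 ratios of 1.34 and 1.61, the latter no longer counted because the mean fell short of the 75th percentile. Markers of T and NK cells, in which this receptor is best known, were dim. Of 7 measured genes, 1 was above the floor in BMM, 0 in pOC, 1 on plastic and 2 on dentin. Their sums of 26.7, 31.8, 40.1 and 74.7 include values under the floor, which are too dim to be ordered. Cd3d, Cd3g, Cd4, Nkg7 and Ncr1 were under the floor on all arrays. Cd8a read 13.0, 8.9, 16.6 and 22.9 and Cd3e 4.6, 4.9, 5.2 and 21.4, so both exceeded the floor in mOCd, and none of the 7 reached the 75th percentile. The part of such cells in the Tnfrsf9 values was not tested.

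On the probe sets used, receptor and ligand of this pair thus had opposite courses. Tnfsf9 was brightest and Tnfrsf9 below the floor in BMM, while in the mature cells Tnfrsf9 was bright and Tnfsf9 just above the floor. The 2 RefSeq promoter windows of Tnfrsf9 (GRCm38.p6) are shown because it is the member with the largest ratio upward, and that of Tnf because it was the cytokine lower in pOC. Each run gives the 250 bases before the start, 5′ to 3′ on the gene's strand. Capitals mark matches, on either strand, to GGNNNTTCC (the core of the NF-kB site), TGANTCA (the AP-1 site) or TATAAA (the TATA box).
Tnfrsf9, first window, chr4:150919905-150920154, plus strand: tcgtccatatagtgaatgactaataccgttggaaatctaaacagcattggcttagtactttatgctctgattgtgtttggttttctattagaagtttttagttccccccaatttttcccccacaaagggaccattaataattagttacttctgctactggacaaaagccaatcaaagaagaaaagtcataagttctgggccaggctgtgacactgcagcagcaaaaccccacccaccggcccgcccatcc
Tnfrsf9, second window, chr4:150927749-150927998, plus strand: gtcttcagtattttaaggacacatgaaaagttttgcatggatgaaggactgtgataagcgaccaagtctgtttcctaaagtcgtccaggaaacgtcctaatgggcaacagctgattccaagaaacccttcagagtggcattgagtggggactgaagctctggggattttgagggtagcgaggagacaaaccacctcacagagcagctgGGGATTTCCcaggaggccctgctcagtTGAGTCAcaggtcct
Tnf, chr17:35202008-35202257, minus strand: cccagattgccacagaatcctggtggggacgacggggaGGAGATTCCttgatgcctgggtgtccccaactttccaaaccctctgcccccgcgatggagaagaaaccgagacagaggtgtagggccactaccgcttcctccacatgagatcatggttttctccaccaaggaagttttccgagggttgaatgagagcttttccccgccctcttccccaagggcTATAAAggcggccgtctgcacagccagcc
The second Tnfrsf9 window held GGGATTTCC, first base at −42 from the start, and TGAGTCA at −15, and its first window held none of the motifs. The Tnf window held TATAAA at −29 and GGAGATTCC at −212. Among all 32851 windows of this length, 15.7% held the NF-kB core, 6.75% the AP-1 site and 12.4% TATAAA. RefSeq windows were found for 27 of the 36 members, and of these 6 held the NF-kB core, 5 the AP-1 site and 5 TATAAA. These counts are of genes, with 31 windows among them, and the shares are of single windows, so they are not on the same footing. A match is a description of letters, and binding was not measured.

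Both TNF receptors were expressed at every stage. Tnfrsf1a, the death domain receptor of TNF, read 602.6 in BMM, 443.5 in pOC, 373.0 on plastic and 313.2 on dentin. The steps between neighbouring stages were 1.36-fold from BMM to pOC, 1.19-fold to mOCp and 1.42-fold from pOC to mOCd, none past 2-fold, and BMM to mOCd came to 1.92-fold lower. Tnfrsf1b, the TRAF-binding receptor, read 276.2 in BMM, 174.6 in pOC, 364.6 on plastic and 293.9 on dentin, 2.09-fold higher in mOCp than in pOC (log2 ratio 1.06). Its other probe set gave 86.2, 97.7, 84.7 and 47.6 and a log2 ratio of −0.21 for the same comparison, so the direction for Tnfrsf1b depends on the probe set.

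Ltbr, the receptor of lymphotoxin, varied least among the bright members. It read 158.3 in BMM, 163.3 in pOC, 163.5 on plastic and 190.8 on dentin, and no ratio exceeded 1.21-fold. Its ligand genes Lta and Ltb were dim, Lta under the floor throughout and Ltb above it in mOCp (26.8) alone.

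Tnfrsf21 was 2.24-fold higher in mOCp than in pOC, its mOCp value lying on the 75th percentile of 77.8. In mOCd its value of 72.3 was under that array's percentile of 79.1, so the 2.08-fold ratio to pOC was not counted. The other probe set gave 0.48 on plastic and 0.09 on dentin on the log2 scale, and this increase was not counted with spike-in scaling, with probe sets averaged, or with suffixed probe sets left out.

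**Figure D3:**
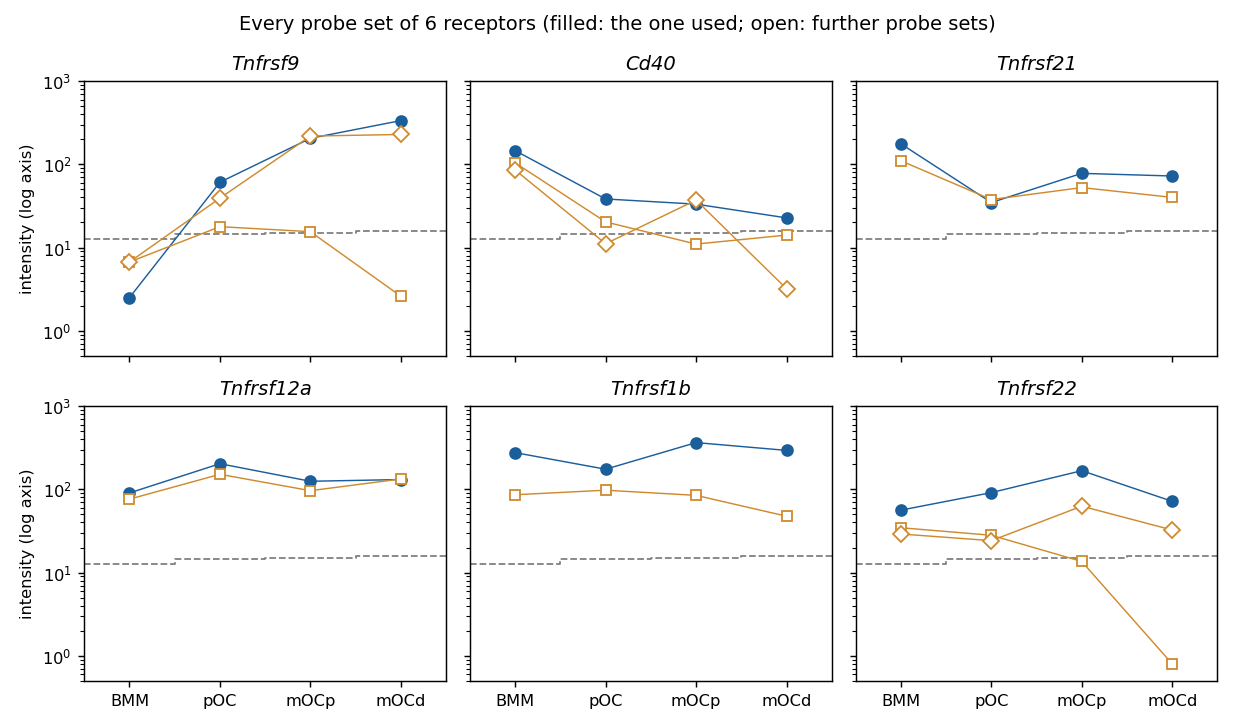
Intensity (log axis) of every probe set of 6 receptors by stage, 1 point per array; filled blue circles are the probe set used, open orange squares and diamonds the further ones, and the dashed step is the floor. Tnfrsf12a, Cd40 and Tnfrsf21 had their peak in the same stage on all their probe sets, while a probe set of Tnfrsf9, of Tnfrsf1b and of Tnfrsf22 went another way.

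The plates and dentin slices were compared directly through mOCd against mOCp. Tnfrsf23 and Tnfrsf22, decoy receptors of TRAIL that lie next to each other on chromosome 7, were lower on dentin. They were 2 of 9 eligible members (22.2%), beside 2.55% of 6915 eligible genes, and no member was higher, beside 2.15%. The median log2 ratio of these 9 was −0.25, against 0.01 for all eligible genes. The Tnfrsf22 call did not hold with probe sets averaged or with suffixed probe sets left out. The 2 calls may also not be separate, since probe sets of these close copies may share signal.

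Tnfrsf23 read 43.3 in BMM, 77.9 in pOC, 169.9 on plastic and 39.3 on dentin. It was 2.18-fold higher in mOCp than in pOC, 1.98-fold lower in mOCd than in pOC, and 4.32-fold lower in mOCd than in mOCp (log2 ratio −2.11). The mOCp array alone stood high, and the BMM and mOCd values were close to each other.

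Tnfrsf22 read 56.3, 91.4, 167.7 and 71.8 in the same order of stages and was 2.34-fold lower in mOCd than in mOCp (log2 ratio −1.22). A further probe set gave 29.1, 24.2, 62.8 and 32.5, with a log2 ratio of −0.95, and another read 34.6, 28.1, 13.6 and 0.8, under the floor in both mature cultures. The mean over its probe sets gave −0.69. The genes are close copies, so their probe sets may share signal, and a probe set annotated to both read 68.5, 71.9, 187.5 and 102.4, again highest in mOCp.

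Some marker genes were also lower in mOCd than in mOCp. The macrophage genes Adgre1, Itgam and C1qa read 1191.3, 368.4 and 108.9 in mOCp against 491.4, 142.7 and 38.9 in mOCd. Mertk, Cx3cr1 and Fcgr1 were dimmer, at most 44.1 in mOCp, and lower in mOCd. The brightest of the list, Csf1r and Cd68, read 7511.7 and 8622.9 in mOCp against 7644.1 and 7367.1 in mOCd. The summed intensity of 7 neutrophil markers was 1859.0 in mOCp and 946.9 in mOCd, after 310.6 in BMM and 825.1 in pOC. This list did not move as a whole. From mOCp to mOCd, S100a8 went from 1112.6 to 506.8, Lcn2 from 367.9 to 102.7 and S100a9 from 208.5 to 155.8. Ngp read 101.2 and 100.0, Mpo 24.2 and 23.8, and Camp 32.1 and 43.0, while Elane was under the floor on both arrays. The 8 macrophage markers summed to 17909.4 in mOCp and 15727.2 in mOCd. The part of either cell type in the decoy receptor values was not tested. Their ligand gene Tnfsf10 was under the floor on both mature arrays.

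Downstream of these receptors, a list of 43 signalling genes (TRAF adaptors, kinases, ubiquitin enzymes, NF-kB subunits and inhibitors, cell death effectors and shedding proteases) was read in the same way, with 39 genes named by a probe set. In pOC against BMM, 8 of 33 eligible genes were higher (24.2%, beside 11.1% of all eligible genes) and 2 were lower (6.06%, beside 13.2%). The 8 were Traf1, Nfkb2, Tnfaip3, Birc3, Tnip1, Ikbkg, Rel and Nfkbie. The median log2 ratio of the 33 was 0.15. Without suffixed probe sets 4 genes remained counted as higher.

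Traf1, an adaptor that binds TRAF-binding receptors such as Tnfrsf9, read 21.7 in BMM, 336.3 in pOC, 253.1 on plastic and 177.6 on dentin, 15.5-fold higher in pOC than in BMM. Its other probe set gave 12.3, 117.1, 122.1 and 147.8, so both separated BMM from the 3 arrays with RANKL. Tnfaip3, the ubiquitin-editing inhibitor of NF-kB known as A20, read 176.5, 596.4, 531.3 and 707.8 and was 3.38-fold higher in pOC, with a log2 ratio of 2.08 on its other probe set. Nfkb2, which encodes the precursor of an NF-kB subunit, read 58.2, 240.4, 134.7 and 139.3 (4.13-fold higher in pOC), but its other probe set had a log2 ratio of 0.63. Birc3, a ubiquitin ligase that limits cell death, read 296.7, 851.1, 841.4 and 660.1, 2.87-fold higher in pOC, and its other probe set was too dim to compare. These genes thus stood higher in pOC, where Tnf itself was lower.

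The other list genes higher in pOC passed 2-fold by less. Tnip1, a partner of A20, read 349.1, 830.8, 1020.3 and 918.2 (2.38-fold). Ikbkg, the regulatory subunit of the IkB kinase, read 114.3, 269.1, 380.5 and 276.7 (2.35-fold), and the NF-kB inhibitor Nfkbie read 109.0, 224.2, 300.6 and 204.6 (2.06-fold). All 3 stayed above BMM in both mature cultures. Rel and Nfkbie were not called under median scaling. Lower in pOC were Cflar and Map3k5, the stress kinase ASK1, which read 144.3, 46.2, 55.2 and 49.5 (3.12-fold lower).

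Among the list genes lower in the mature cultures were Rel and effectors of necroptosis. Rel, an NF-kB subunit, read 68.4 in BMM, 144.0 in pOC, 57.6 on plastic and 50.4 on dentin, 2.5-fold and 2.86-fold lower than in pOC. Ripk3, the kinase of necroptosis, read 370.6, 344.3, 152.8 and 82.9, 2.25-fold lower on plastic and 4.15-fold lower on dentin than in pOC. Mlkl, which Ripk3 phosphorylates, read 231.8, 279.7, 238.1 and 105.2 and was 2.66-fold lower in mOCd than in pOC and 2.26-fold lower than in mOCp. Both necroptosis genes thus had their lowest value on the dentin array.

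Cflar, the inhibitor of caspase-8, was lowest in pOC, at 247.7 in BMM, 119.4 in pOC, 248.5 on plastic and 287.3 on dentin. It was 2.07-fold lower in pOC than in BMM, and 2.08-fold higher on plastic and 2.41-fold higher on dentin than in pOC. These calls ended with spike-in scaling and with the mean over its probe sets. Against pOC, further Cflar probe sets above the floor gave log2 ratios of 0.92, 0.98 and 0.61 on plastic. On dentin they gave 0.17, 0.45 and 0.23, against 1.27 on the one used, so the size of that increase depends on the probe set. Casp8 stayed between 711.3 and 1288.5. Traf6, the adaptor that carries the signal of the RANKL receptor, read 70.6, 125.3, 174.8 and 322.7 and was 2.58-fold higher in mOCd than in pOC. Further Traf6 probe sets gave log2 ratios of −0.09, −0.28 and 2.63, so that increase depends on the probe set. On plastic 1 of 32 eligible list genes was higher and 2 lower than in pOC (3.12% and 6.25%, beside 8.8% and 11.4%), and on dentin 2 of 33 were higher and 4 lower (6.06% and 12.1%, beside 10.8% and 12.3%), Rbck1, a subunit of the linear ubiquitin ligase, being the other lower gene on dentin at 66.7 on plastic and 58.5 on dentin after 179.8 and 126.4. Between mOCd and mOCp, Mlkl was the single list gene of 31 past 2-fold (3.23%, beside 2.55% lower among all genes).

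**Figure D4:**
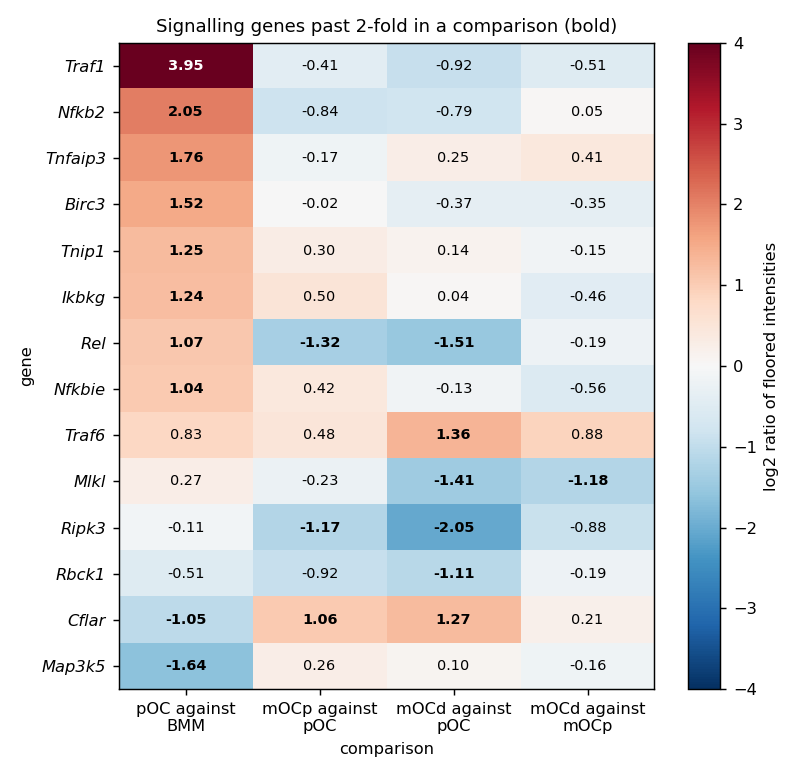
Log2 ratios of floored intensities for the 14 signalling genes past 2-fold in at least 1 of the 4 comparisons (columns), with bold numbers where the ratio was counted; red is higher and blue lower in the first-named stage. Most bold values in the first column are positive, and Ripk3, Mlkl and Rel are negative in mOCd against pOC.

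The enzymes that shed ligands and receptors of this family from the cell surface did not pass 2-fold between neighbouring stages. Adam17, which releases soluble TNF, read 997.7 in BMM, 574.9 in pOC, 494.1 on plastic and 421.9 on dentin. Adam10, a related protease, read 1849.5, 981.6, 801.2 and 637.8. Both had their highest value in BMM, as Tnf had. On both mature arrays each was more than 2-fold below BMM, a comparison in which list genes were not counted.

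Scaling shifted the balance of calls. Bringing arrays to a common median moved the median gene by −0.19 on the log2 scale in pOC against BMM and changed the share of calls that were higher from 45.9% to 32.6%, and in mOCd against mOCp from 45.8% to 32.0%. Scaling to 6 spike-in probe sets above the floor moved the median by 0.25 in pOC against BMM, −0.45 in mOCp against pOC and −0.43 in mOCd against pOC, and gave shares of 63.0%, 13.7% and 18.5% against 45.9%, 43.6% and 46.8%. In mOCd against pOC the common median moved it by −0.12, with a share of 36.8%. The calls for Tnf, Tnfsf9, Tnfrsf13b, Tnfrsf21 and Cd40 in pOC against BMM and for Tnfrsf9 and Tnfrsf13b in both mature cultures held under each of the 3 scalings.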

How the data were processed

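Total RNA from the 4 cultures was hybridised as biotin-labelled cRNA, per the labels' protocols. The deposited values are intensities on a linear scale, 1 for each probe set on each array. The submitters' processing notes name MAS5, and a version and a genome build are not given in the sources used here. All arrays shared a trimmed mean (2% off either end) of 100.0, so differences in total mRNA are not visible, and dim probe sets are imprecise. There were 45101 probe sets including 64 controls, named through an annotation of 2016.

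Floors, ratios and calls were computed in Python 3.11.15 with numpy 2.4.6 and pandas 2.3.3 over all genes. The calling code was run on simulated arrays with planted changes well past 2-fold in bright genes, which says nothing on calls near the limits. With 1 array per stage no test, SE or p-value exists, and precision is limited by how few arrays there are. The members and lists were chosen with earlier results of these data known. Members called in a comparison or at the 75th percentile of an array were given in full, as were Tnfsf11 and Tnfrsf11b, and list genes called in a comparison were named, with Casp8, Adam17 and Adam10, which, like the values of dim members, were chosen after their values were seen, as were the ratios of mature cultures to BMM. Of the signalling list 4 genes were not analysed here. Promoter letters come from RefSeq windows of GRCm38.p6, matched by symbol. The 8 alternatives covered scaling, floor, brightness limit and choice of probe set.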

Additional observations from a re-analysis of the deposited data

Results flagged for a closer look

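On the probe sets used, Tnfrsf22 and Tnfrsf23 stood above pOC on plastic and below it on dentin. For Tnfrsf23 the log2 ratio to pOC was 1.12 on plastic and −0.99 on dentin, and for Tnfrsf22 it was 0.88 on plastic and −0.35 on dentin, the last within the probe-set SD of 0.50. For Tnfrsf22 no other probe set showed opposite signs: the further ones gave 1.38 and 0.43, and −0.92 and −0.83 as bounds, and the one shared with Tnfrsf23 gave 1.38 and 0.51. Each value rests on 1 array, both comparisons share the pOC array, and the difference was not tested.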

How the results depend on the processing

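Alternatives left the direction of all 15 superfamily calls as it was, except that Cd40 had no value without suffixed probe sets, and 8 of the 15 were called under each of the 8 alternatives. No paired analysis was possible because each stage had 1 array. The number of members higher in pOC than in BMM, 1 as reported, was 0 with median scaling, 2 with the brightness limit at the 60th percentile and 0 without suffixed probe sets. The 4 higher in mOCp than in pOC became 1 with spike-in scaling and 2 with the mean over probe sets, and the 1 lower became 2 with spike-in scaling. In mOCd against pOC the 1 higher became 2 with the lower brightness limit and 0 with the mean over probe sets, and the 1 lower became 2 with spike-in scaling. The 2 lower in mOCd than in mOCp became 1 with the mean over probe sets and 1 without suffixed probe sets. The cause was not tested. In the signalling list, the 8 higher in pOC than in BMM became 4 without suffixed probe sets. With spike-in scaling its 2 lower became 1, the 1 higher and 2 lower on plastic became 0 and 4, and the 2 higher and 4 lower on dentin became 0 and 10. With the mean over probe sets its 2 lower in pOC became 1 and its higher genes on plastic and on dentin became 0. The other 53 of 64 alternative superfamily counts stayed within 1.5 times the reported count. Of 213 alternative log2 ratios of called genes, 190 moved by less than the probe-set SD, 23 moved by more and 0 changed sign. They include ratios of mature cultures to BMM, for which no such SD is given above. Many could not move, so the share is no measure of stability. The brightness limit does not enter a ratio, and the choice of probe set cannot change a gene that has only 1. A signal near the floor limits every statement on the dim members.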

Other observations

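Probe sets annotated to several superfamily genes name no gene and stand outside the counts. A probe set shared by Tnfsf12, Tnfsf13 and their read-through transcript Tnfsfm13 read 187.4 in BMM, 37.4 in pOC, 133.8 on plastic and 37.0 on dentin. Another, shared by Tnfsf12 and Tnfsfm13, read 173.6, 73.2, 168.3 and 57.0. Both were highest in BMM and mOCp and low in pOC and mOCd. The log2 ratio of mOCd to mOCp was −1.85 on the first and −1.56 on the second. These ligands bind Tnfrsf12a (TWEAK, encoded by Tnfsf12) and Tnfrsf13b (APRIL, encoded by Tnfsf13), and which of the genes gave the signal cannot be told apart on these probe sets.

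Chromosome 4 held 8 of the 36 members, 7 of them receptors, and chromosome 17 held 8, among them Tnf beside Lta and Ltb, while no other chromosome held more than 3. Neighbours were not always detected together: Tnf and Tnfrsf1b exceeded the floor on all 4 arrays, while the adjacent Lta and Tnfrsf8 exceeded it on none. Tnfrsf22 and Tnfrsf23, adjacent on chromosome 7, both peaked in mOCp.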
